A study of Mus musculus with 12 samples.

Results

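The 10 genes described here carry peptides to the cell surface on MHC class I molecules, cut those peptides or, for Nlrc5, drive class I genes. They were chosen by name as a list, by a rule that uses no measured level, though with earlier results of these data known, and all 10 were found among the 23238 gene symbols of the data. Their levels were read in 12 kidney libraries of C57BL/6 mice, made with QuantSeq, a method that sequences the 3′ end of polyadenylated transcripts. The groups were mice with chronic kidney disease under time restricted feeding (CKD TRF), mice with chronic kidney disease (CKD) and controls (Control), with 4 libraries in each. All groups share the strain and the tissue. How the disease was produced, the feeding hours, the age and the sex are not given in the sources used here, and no label says that each library is a separate mouse, so a p-value here sets a difference against the spread of libraries, which may be technical.

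MHC class I is a trimer of a polymorphic heavy chain, a light chain and a short peptide, and nearly every nucleated cell shows it to CD8 T cells and natural killer cells. Peptides are cut by the proteasome, pumped into the endoplasmic reticulum by a transporter and loaded onto the heavy chain with the help of chaperones. Interferon gamma brings in the immunoproteasome, in which inducible catalytic subunits take the place of constitutive ones, and it raises most genes of the pathway. In the kidney, tubular cells carry class I at low levels and are known to carry more in inflamed tissue, while resident and infiltrating leukocytes carry it at high levels.

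The members fall into heavy chains (H2-K1 and H2-D1), the light chain (B2m), peptide transport and loading (Tap1, Tap2 and Tapbp), inducible proteasome subunits (Psmb8, Psmb9 and Psmb10) and the class I transactivator (Nlrc5). In the GENCODE annotation of GRCm38 (mm10), 7 of the 10 lie on chromosome 17, in the MHC region. Psmb9 spans 34181987 to 34187764 on the minus strand, Tap1 34187553 to 34197225, Psmb8 34197721 to 34201454 and Tap2 34203527 to 34216321, each of these 3 on the plus strand. Tapbp lies at 33915899 to 33929292 (plus), H2-K1 at 33996017 to 34000347 (minus) and H2-D1 at 35262730 to 35267499 (plus). B2m is on chromosome 2 (122147686 to 122153083, plus), Psmb10 on chromosome 8 (105935735 to 105938444, minus) and Nlrc5 also on chromosome 8 (94434356 to 94527272, plus).

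Class I heavy chain and B2m promoters are known to share an upstream element bound by NF-kB and interferon regulatory factors and, nearer to the start, a module named for its S, X and Y boxes, on which the RFX complex, CREB or ATF1, NF-Y and NLRC5 assemble. The stretches below are shown because they hold these elements. They are RefSeq sequences of GRCm38.p6, printed 5′ to 3′ on the strand of the gene. Start sites are those of RefSeq and can differ from GENCODE. The H2-D1 and Psmb8 stretches lie inside the GENCODE spans of these genes given above, and the Tap1 and Psmb9 stretch inside that of Psmb9. Capitals in the heavy chain and B2m stretches mark in order the letters of an NF-kB core (GGGA and CC parted by any 4 bases, found on both strands), the core of the X2 box (TGACG) and the inverted CCAAT of the Y box (ATTGG). In B2m the first capitals are an interferon-stimulated response element core (GAAA, any 2 bases and GAAA again).
H2-K1, chr17:34000354-34000472, minus strand: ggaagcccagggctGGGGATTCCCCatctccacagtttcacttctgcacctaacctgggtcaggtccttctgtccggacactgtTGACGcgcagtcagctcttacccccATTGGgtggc
H2-D1, chr17:35262909-35263027, plus strand: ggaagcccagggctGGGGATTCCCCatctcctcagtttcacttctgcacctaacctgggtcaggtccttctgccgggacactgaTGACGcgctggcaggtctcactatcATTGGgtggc
B2m, chr2:122147546-122147643, plus strand: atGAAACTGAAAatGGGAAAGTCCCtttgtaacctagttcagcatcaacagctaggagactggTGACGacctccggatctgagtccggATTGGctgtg

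The H2-K1 and H2-D1 stretches shared 108 of 119 bases. In all 3 genes ATTGG began 25 bases after TGACG, and the first base of the NF-kB core lay 70 bases before TGACG in H2-K1 and H2-D1 and 49 bases before it in B2m. The spacing of 25 was noticed in these sequences and then counted: it was found on the gene strand in 18 of 32851 promoter windows of the RefSeq table (0.0548%), and in 30 (0.0913%) on either strand. The 26 genes with it included H2-K1, H2-D1, B2m and H2-M3.

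Tap1 and Psmb9 are transcribed away from each other from start sites 226 bases apart, so the bases between them serve as promoter of both. They are printed on the Tap1 strand, with TGACG in capitals.
Tap1 and Psmb9, chr17:34187331-34187555, plus strand: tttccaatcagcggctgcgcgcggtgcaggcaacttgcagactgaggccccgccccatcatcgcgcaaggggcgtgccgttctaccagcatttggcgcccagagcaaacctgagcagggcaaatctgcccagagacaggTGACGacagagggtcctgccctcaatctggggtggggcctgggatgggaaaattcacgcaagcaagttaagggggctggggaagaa
The Psmb8 stretch holds the only STAT site core (TTCNNNGAA, in capitals) found in the members' promoters.
Psmb8, chr17:34198078-34198126, plus strand: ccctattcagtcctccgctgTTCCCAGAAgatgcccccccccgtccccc

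Promoter windows, from 250 bases before to 50 bases after the start, were found for 8 of the 10 members, not for Tap2 and Nlrc5. All motifs were searched on both strands of the 250 bases before the start. Among all 32851 windows, the interferon-stimulated response element core was found in 2.98%, TTCNNNGAA in 7.02%, the NF-kB core in 17.6%, TGACG in 17.8% and CCAAT in 33.8%. The shorter letters are frequent, and a match describes letters, not a bound site.

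**Figure D1:**
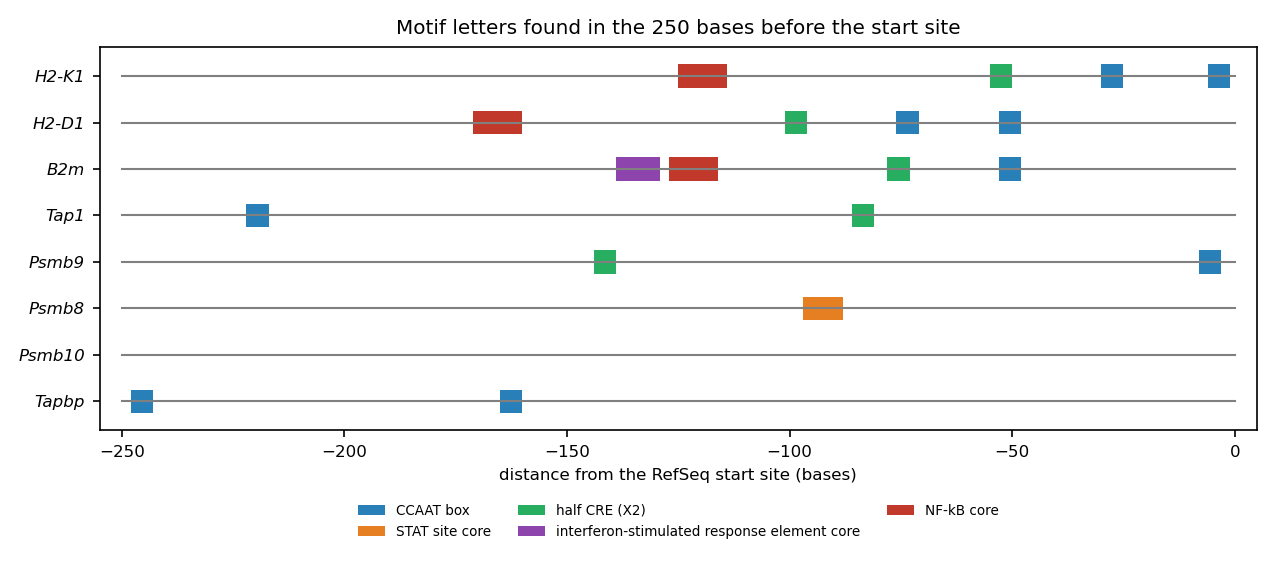
Positions of the searched motifs in the 250 bases before the RefSeq start site (x axis, bases from the start) of 8 members, 1 row per gene, with colours for the 5 motifs. NF-kB core, TGACG and inverted CCAAT follow each other in that order in H2-K1, H2-D1 and B2m, with 25 bases from TGACG to ATTGG in each.

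The libraries held 14145997 to 17210134 reads in CKD TRF, 14512628 to 16858252 in CKD and 10989781 to 12810486 in Control. The deposited values are log2 of scaled reads plus 1, where scaled reads are read numbers times a factor per library, on a scale near CPM. They summed to 987841 to 1025834 in CKD TRF, 941189 to 978419 in CKD and 1076773 to 1180101 in Control. Every Control total was thus above every diseased total. Reads come from the end of a transcript, so levels were not divided by length. Where a gene has no read, up to 3 reads remain possible, which were worth 0.168 to 0.306 scaled reads, for counting error only. Of all genes, the 13943 in the upper 60% by mean log2 value were tested, and all 10 members were among them, each also by its Control mean alone. Kidney tubule markers (Lrp2, Slc34a1, Umod and 4 others) summed to 5454 to 8617 scaled reads in every library. Single markers moved in both directions in CKD against Control, from -1.11 ± 0.14 (SE) for Slc5a2 to 0.91 ± 0.29 for Aqp2 on the log2 scale. Leukocyte and macrophage markers and urothelial genes were higher in the diseased groups. Fat RNA was most plentiful in 5 diseased libraries (CKD TRF 1, 3 and 4 and CKD 2 and 4), called here the libraries with fat markers. In these the adipocyte gene Adipoq lay above 3 on the log2 scale. In every CKD library Adipoq was at 1.03 or more, against 0.55 at most in Control, so CKD 1 and CKD 3 were not free of fat RNA. The 5 libraries with fat markers had the highest urothelial marker sums, 112 to 140 scaled reads. In CKD 1, CKD 3 and CKD TRF 2 these sums were 28.5, 38.3 and 31.9. A fit without the libraries with fat markers thus also leaves out those richest in urothelial RNA. In whole tissue, fewer cells of a type and less RNA per cell cannot be told apart.

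The comparison of CKD with Control asks which of the genes differ in diseased kidneys. Both heavy chains, the light chain, Tap1, Tapbp, Psmb8 and Nlrc5 rose in CKD, 7 of the 10 members, and none fell (limma, Benjamini-Hochberg adjusted p under 0.05 over all tested genes). Over all tested genes, 45.4% passed, 23.6% with a higher and 21.8% with a lower level. The median change of the members was 0.71 on the log2 scale, beside 0.022 for all tested genes. The same 7 members had no overlap between the CKD and the Control libraries, with all CKD values higher, which held for 20.3% of all tested genes. Tap2, Psmb9 and Psmb10 did not pass.

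**Figure D2:**
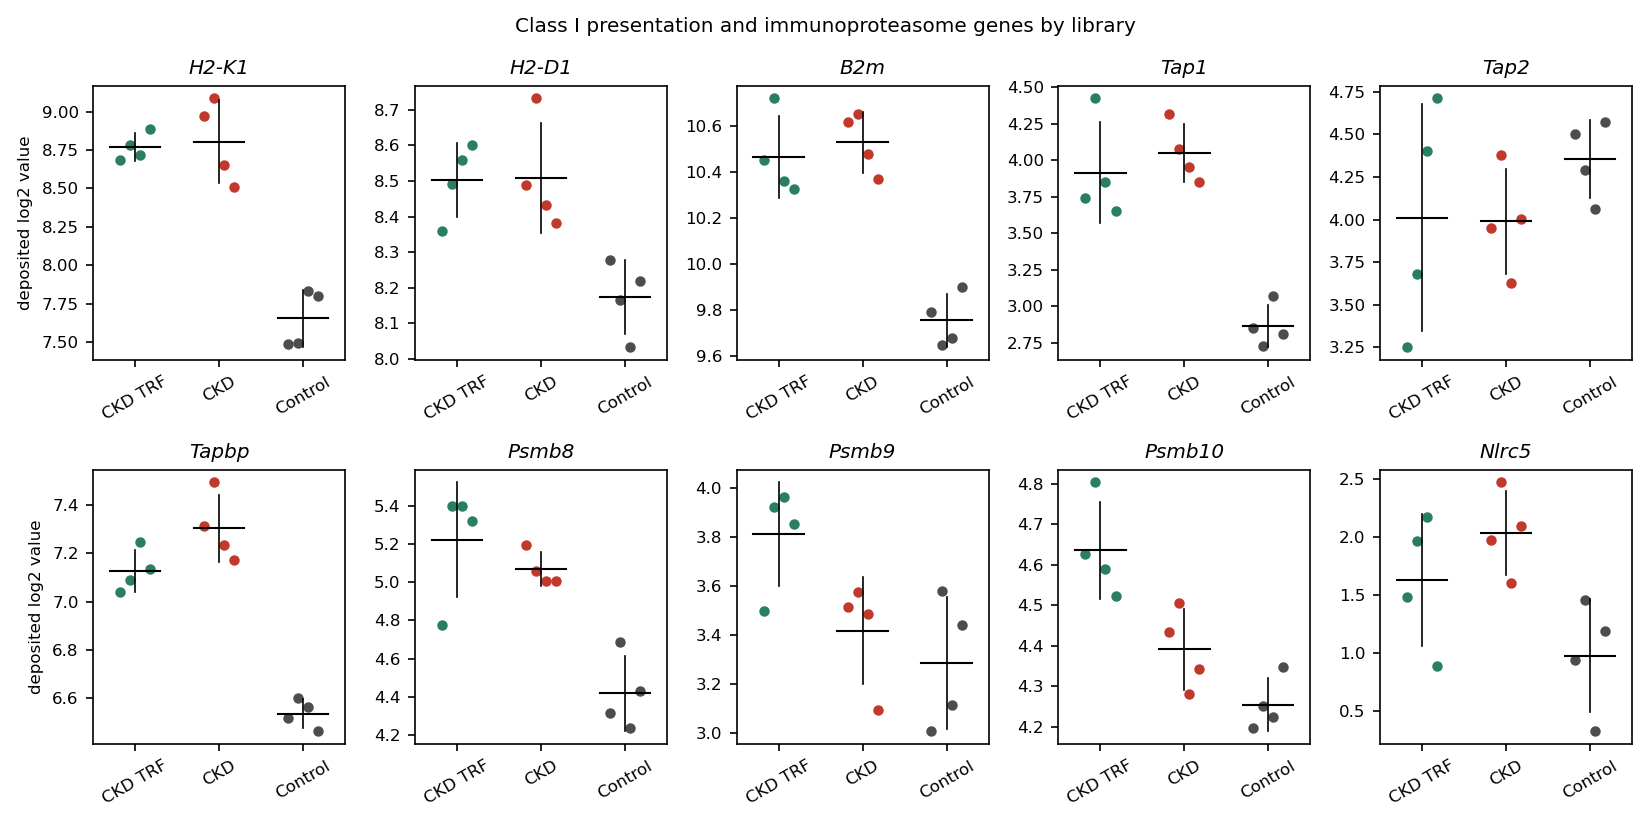
Deposited log2 value (y axis, a scale of its own in each panel) of the 10 genes in each library, with a line for the group mean and a bar for ± 1 SD, for 4 CKD TRF, 4 CKD and 4 Control libraries. All 8 diseased libraries lie above all 4 Control libraries in H2-K1, H2-D1, B2m, Tap1, Tapbp and Psmb8, while Tap2 shows the groups overlapping.

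H2-K1, the K heavy chain of class I, was higher in every diseased library than in any Control library. Its log2 values were 8.68, 8.78, 8.72 and 8.89 in CKD TRF libraries 1 to 4, 8.97, 9.09, 8.65 and 8.51 in CKD and 7.49, 7.50, 7.83 and 7.80 in Control. The lowest diseased library stood above the highest Control library by a wide margin, and the CKD TRF and CKD values lay across each other. H2-K1 averaged 436 ± 27.6 scaled reads in CKD TRF, 452 ± 83.6 in CKD and 202 ± 26.1 in Control (SD, n = 4 each). It rose by 1.15 ± 0.12 (SE) on the log2 scale in CKD against Control and by 1.12 ± 0.12 in CKD TRF against Control (limma adjusted p = 3.1e-07 and 8.1e-07).

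H2-D1, the D heavy chain, changed less. Its log2 values were 8.36, 8.49, 8.56 and 8.60 in CKD TRF, 8.49, 8.73, 8.43 and 8.38 in CKD and 8.28, 8.16, 8.03 and 8.22 in Control. The groups came close, with Control 1 just below the lowest diseased library. H2-D1 averaged 362 ± 26.0 scaled reads in CKD TRF, 365 ± 40.8 in CKD and 288 ± 20.7 in Control. It rose by 0.34 ± 0.10 in CKD and by 0.33 ± 0.10 in CKD TRF, each against Control (limma adjusted p = 0.00807 and 0.0114). The call in CKD was lost under median centring of the libraries (0.23, adjusted p = 0.0532), and without the libraries with fat markers those of CKD (0.29, adjusted p = 0.116) and CKD TRF (0.32, adjusted p = 0.254) were lost.

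The order of the 2 heavy chains turned over between the groups. The log2 value of H2-K1 minus that of H2-D1 lay between 0.16 and 0.32 in CKD TRF, between 0.13 and 0.48 in CKD and between -0.79 and -0.20 in Control. H2-K1 was thus the higher of the pair in all 8 diseased libraries and the lower in all 4 Control libraries. This difference was seen after the values were known and was not tested. The ends of both genes, where the reads start, were nearly distinct: of 251 stretches of 50 bases in the last 300 bases of H2-K1, 0.797% were also found in H2-D1. In H2-D1 17.1% of such stretches were found in other transcripts, among them Adsl and Kcnk4, so its reads are less certain than those of H2-K1.

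Reads can be split among the many class I heavy chain genes of the mouse, so their sum was also compared. Over 32 entries the sum was 961 ± 55.7 scaled reads in CKD TRF, 975 ± 139 in CKD and 642 ± 32.3 in Control (SD, n = 4 each). It was higher by 0.59 on the log2 scale in CKD than in Control and by 0.58 in CKD TRF than in Control (two-sided exact permutation p = 0.0286 each, 0.0429 adjusted over 3 comparisons). The value 0.0286 is the smallest that 4 libraries against 4 allow. H2-K1 and H2-D1 made up 82.4% to 83.4% of the sum in CKD TRF, 83.0% to 84.7% in CKD and 72.0% to 80.1% in Control. H2-K1 alone held 44.0% to 45.9% in CKD TRF, 43.8% to 48.6% in CKD and 26.3% to 37.2% in Control.

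A separate list of other heavy chain genes, which holds 24 of the summed entries, had 9 genes high enough to be tested. In CKD against Control 2 rose, 2 fell and 5 did not pass, shares close to those of all tested genes (23.6% higher and 21.8% lower). H2-M2, a class Ib gene, rose by 2.03 ± 0.23 to 6.76 ± 1.88 scaled reads in CKD, against 0.885 ± 0.366 in Control (limma adjusted p = 7.3e-07). H2-Q9, a Qa-2 heavy chain, rose by 0.96 ± 0.15 (limma adjusted p = 3.3e-05). Its end stretches were not compared with other transcripts, so its reads may come in part from related heavy chain genes. H2-T23, which encodes the Qa-1 molecule read by CD94 receptors, fell by 1.29 ± 0.29, to 0.984 ± 0.225 scaled reads in CKD, against 4.35 ± 2.94 in Control (limma adjusted p = 0.00118). H2-T22 fell by 0.32 ± 0.12, and it shares 49.4% of its end stretches with H2-T10, so its reads are uncertain.

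B2m encodes beta-2 microglobulin, the light chain shared by all classical class I molecules. Its log2 values were 10.45, 10.72, 10.36 and 10.32 in CKD TRF, 10.62, 10.65, 10.47 and 10.37 in CKD and 9.79, 9.64, 9.68 and 9.90 in Control. The Control libraries were all below the diseased ones. B2m averaged 1419 ± 184 scaled reads in CKD TRF, 1480 ± 134 in CKD and 864 ± 70.4 in Control. It rose by 0.78 ± 0.11 in CKD and by 0.71 ± 0.11 in CKD TRF, each against Control (limma adjusted p = 1.5e-05 and 5.7e-05).

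B2m also pairs with most class I related molecules, and 5 of 6 listed genes of such molecules were tested in CKD against Control. Mr1, which shows vitamin B metabolites to T cells, rose by 0.79 ± 0.22, and Hfe, a regulator of iron uptake, rose by 0.64 ± 0.19. Fcgrt, the neonatal Fc receptor that recovers albumin and IgG in the kidney, fell by 0.35 ± 0.11. Azgp1, a class I-like secreted protein that does not need the light chain, fell by 1.53 ± 0.13, to 50.4 ± 11.97 scaled reads in CKD, against 145 ± 9.76 in Control. Cd1d1 changed by 0.47 ± 0.26 and did not pass (limma adjusted p = 0.146). Among the tested partners of the light chain, Mr1 and Hfe thus rose and Fcgrt fell.

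Tap1 and Tap2 are the subunits of the heterodimeric transporter that moves peptides into the endoplasmic reticulum, and they did not change alike. The log2 values of Tap1 were 3.74, 4.42, 3.85 and 3.65 in CKD TRF, 4.32, 4.08, 3.96 and 3.85 in CKD and 2.85, 2.73, 3.07 and 2.81 in Control. All Control libraries were lower than all diseased ones. Tap1 rose by 1.19 ± 0.18 in CKD and by 1.05 ± 0.18 in CKD TRF, each against Control (limma adjusted p = 2.6e-05 and 1.3e-04). It averaged 14.5 ± 4.08 scaled reads in CKD TRF, 15.7 ± 2.38 in CKD and 6.32 ± 0.762 in Control.

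The log2 values of Tap2 were 3.25, 3.68, 4.40 and 4.71 in CKD TRF, 3.95, 4.38, 3.63 and 4.00 in CKD and 4.50, 4.29, 4.06 and 4.57 in Control. The groups overlapped, and the CKD TRF libraries were the most spread, with 1 and 2 below every Control library and 4 above them all. The change was -0.37 ± 0.24 in CKD and -0.35 ± 0.24 in CKD TRF against Control, and neither passed (limma adjusted p = 0.228 and 0.278). Tap1 minus Tap2 on the log2 scale lay between -1.06 and 0.75 in CKD TRF, between -0.30 and 0.37 in CKD and between -1.76 and -0.99 in Control. Tap2 overlaps antisense genes (Gm20496 and Gm15821) in the annotation, though 0% of its end stretches were found in transcripts of the other strand. Psmb8, which rose in CKD, also overlaps Gm20496, and B2m, Tapbp, Psmb10 and Nlrc5 overlap other genes on the other strand. Whether the counting used the strand is not given in the sources used here.

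Tapbp encodes tapasin, which bridges the transporter and the heavy chain and edits the peptide. Its log2 values were 7.04, 7.09, 7.24 and 7.13 in CKD TRF, 7.31, 7.49, 7.23 and 7.17 in CKD and 6.52, 6.60, 6.57 and 6.46 in Control. The Control libraries lay close together and below the others. Tapbp rose by 0.76 ± 0.09 in CKD and by 0.59 ± 0.09 in CKD TRF, each against Control (limma adjusted p = 1.8e-06 and 5.3e-05).

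Of 9 other genes of peptide loading and trimming tested, 1 rose, 3 fell and 5 did not pass in CKD against Control, beside 23.6% higher and 21.8% lower of all tested genes. Pdia3, the ERp57 partner of tapasin, rose by 0.52 ± 0.11 (limma adjusted p = 8.9e-04). Tapbpl, which encodes TAPBPR, a second peptide editor, fell by 0.48 ± 0.15. The chaperone Hspa5 fell by 0.56 ± 0.15 and the translocon gene Sec61a1 by 0.49 ± 0.12. Calr (calreticulin, -0.23 ± 0.10), Canx (calnexin, 0.10 ± 0.11) and Erap1 (the peptide-trimming aminopeptidase, 0.08 ± 0.19) did not pass. The list had a median change of -0.23, beside 0.022 for all tested genes.

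**Figure D3:**
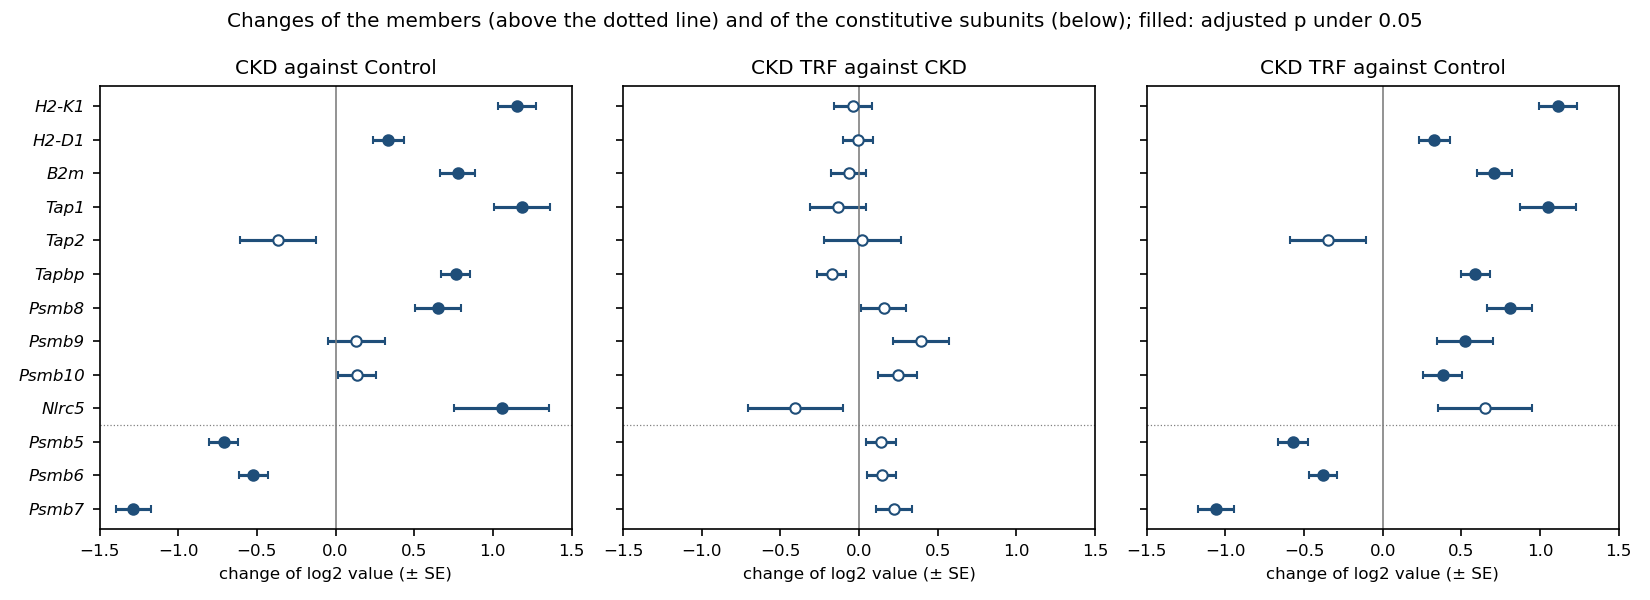
Change of the log2 value (x axis, points, with bars for ± 1 SE from limma) of the 10 members, above the dotted line, and of the 3 constitutive catalytic subunits, below it, in the 3 comparisons with 4 libraries per group. Filled points have an adjusted p under 0.05: 7 members in CKD against Control, none in CKD TRF against CKD and 8 in CKD TRF against Control, with the 3 constitutive subunits lower in both diseased groups.

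Of the immunoproteasome subunits, Psmb8 passed in both diseased groups against Control, and Psmb9 and Psmb10 in CKD TRF against Control. Psmb8 (beta 5i, chymotrypsin-like) had log2 values of 4.78, 5.40, 5.40 and 5.32 in CKD TRF, 5.20, 5.06, 5.01 and 5.01 in CKD and 4.31, 4.69, 4.24 and 4.43 in Control. Every diseased library was above every Control library. It rose by 0.65 ± 0.14 in CKD and by 0.81 ± 0.14 in CKD TRF, each against Control (limma adjusted p = 0.00108 and 2.1e-04).

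Psmb9 (beta 1i) had log2 values of 3.50, 3.92, 3.96 and 3.85 in CKD TRF, 3.52, 3.58, 3.49 and 3.09 in CKD and 3.01, 3.58, 3.11 and 3.44 in Control. The CKD and Control values lay across each other, and 3 of the 4 CKD TRF libraries were above all others. The change in CKD against Control was 0.13 ± 0.18 (limma adjusted p = 0.573), and in CKD TRF against Control Psmb9 rose by 0.53 ± 0.18 (limma adjusted p = 0.0254). Of 24 alternatives 8 ended this call, at changes of 0.36 to 0.64 and adjusted p values of 0.0541 to 0.197. These included leaving out Control 1 (0.43, adjusted p = 0.0854), Control 3 (0.47, 0.0653) or CKD TRF 2 (0.49, 0.0637), 3 (0.47, 0.0703) or 4 (0.51, 0.0553), and the fit without the libraries with fat markers (0.64, 0.197).

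Psmb10 (beta 2i) had log2 values of 4.63, 4.80, 4.59 and 4.52 in CKD TRF, 4.43, 4.51, 4.28 and 4.34 in CKD and 4.20, 4.25, 4.22 and 4.35 in Control. All 4 CKD TRF libraries were above the highest CKD library and the highest Control library, while CKD and Control overlapped. The change in CKD against Control was 0.14 ± 0.12 (limma adjusted p = 0.388). Psmb10 rose in CKD TRF against Control by 0.38 ± 0.12 (limma adjusted p = 0.0196), a call lost without CKD TRF 2 (0.32, adjusted p = 0.0681), under median centring (0.30, 0.0579) and quantile normalization (0.31, 0.0542), and without the libraries with fat markers (0.55, 0.145), where the change was larger.

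Psmb9 and Tap1, which share the bases printed above between their starts, differed in their change. Tap1 minus Psmb9 on the log2 scale lay between -0.20 and 0.50 in CKD TRF, between 0.47 and 0.80 in CKD and between -0.85 and -0.04 in Control. All CKD libraries had Tap1 the higher of the pair and all Control libraries the lower. The annotated genes overlap at their 5′ ends on opposite strands, away from the 3′ ends that were sequenced. The difference was not tested.

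The constitutive subunits whose places the inducible ones take moved down. Psmb5 (beta 5) averaged 165 ± 7.13 scaled reads in CKD TRF, 150 ± 5.47 in CKD and 247 ± 31.4 in Control, and Psmb6 (beta 1) 134 ± 4.99 in CKD TRF, 121 ± 7.75 in CKD and 175 ± 15.9 in Control. Psmb7 (beta 2) had log2 values of 7.22, 7.07, 7.13 and 6.83 in CKD TRF, 6.75, 6.58, 6.92 and 7.09 in CKD and 8.21, 8.22, 7.96 and 8.10 in Control. In all 3 genes every Control library was above every diseased library, a separation that 19.2% of all tested genes showed in CKD and 15.6% in CKD TRF. In CKD against Control Psmb5 fell by 0.71 ± 0.09, Psmb6 by 0.52 ± 0.09 and Psmb7 by 1.28 ± 0.11 (limma adjusted p = 5.7e-06, 1.1e-04 and 3.4e-08). Against Control they fell in CKD TRF by 0.57 ± 0.09, 0.38 ± 0.09 and 1.06 ± 0.11 (limma adjusted p = 9.7e-05, 0.00263 and 6.8e-07). Without the libraries with fat markers, which leaves 1 CKD TRF library, Psmb5 (-0.51, adjusted p = 0.0929) and Psmb6 (-0.33, adjusted p = 0.253) no longer passed in CKD TRF, with changes close to those in all libraries. The Psmb7 end overlaps Nek6 on the other strand in 82.1% of its stretches, and Nek6 changed by 0.26 ± 0.17 in CKD against Control and did not pass (limma adjusted p = 0.231). Psmb5 shares 51.0% of its end stretches with the gene Gm3375.

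The ratio of each inducible subunit to its constitutive counterpart depends little on the scaling of a library, through the added 1 alone, which weighs most on the low Psmb9. The log2 ratio of Psmb8 to Psmb5 was -2.15 ± 0.32 in CKD TRF, -2.17 ± 0.12 in CKD and -3.53 ± 0.23 in Control (SD, n = 4 each). For Psmb10 to Psmb7 it was -2.42 ± 0.17 in CKD TRF, -2.44 ± 0.31 in CKD and -3.86 ± 0.14 in Control. For Psmb9 to Psmb6 it was -3.27 ± 0.23 in CKD TRF, -3.51 ± 0.30 in CKD and -4.17 ± 0.28 in Control. The first 2 ratios parted all diseased from all Control libraries, and in the last CKD 4 lay just below Control 4.

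In CKD against Control the log2 ratio was higher by 1.36 for Psmb8 to Psmb5 and by 1.42 for Psmb10 to Psmb7 (two-sided exact permutation p = 0.0286 each, 0.0514 adjusted over 9 tests). For Psmb9 to Psmb6 the difference was 0.66 (exact permutation p = 0.0571, 0.0857 adjusted). The differences between CKD TRF and Control were 1.38 for Psmb8 to Psmb5, 0.90 for Psmb9 to Psmb6 and 1.44 for Psmb10 to Psmb7 (exact permutation p = 0.0286 each, 0.0514 adjusted). None of the ratios passed 0.05 after adjustment, and with 4 libraries against 4 the smallest p is 0.0286. In CKD against Control the difference for Psmb10 to Psmb7 was the sum of 0.14 for Psmb10, which did not pass, and a fall of Psmb7 by 1.28, while in Psmb8 to Psmb5 the inducible gene rose by 0.65 and the constitutive one fell by 0.71.

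**Figure D4:**
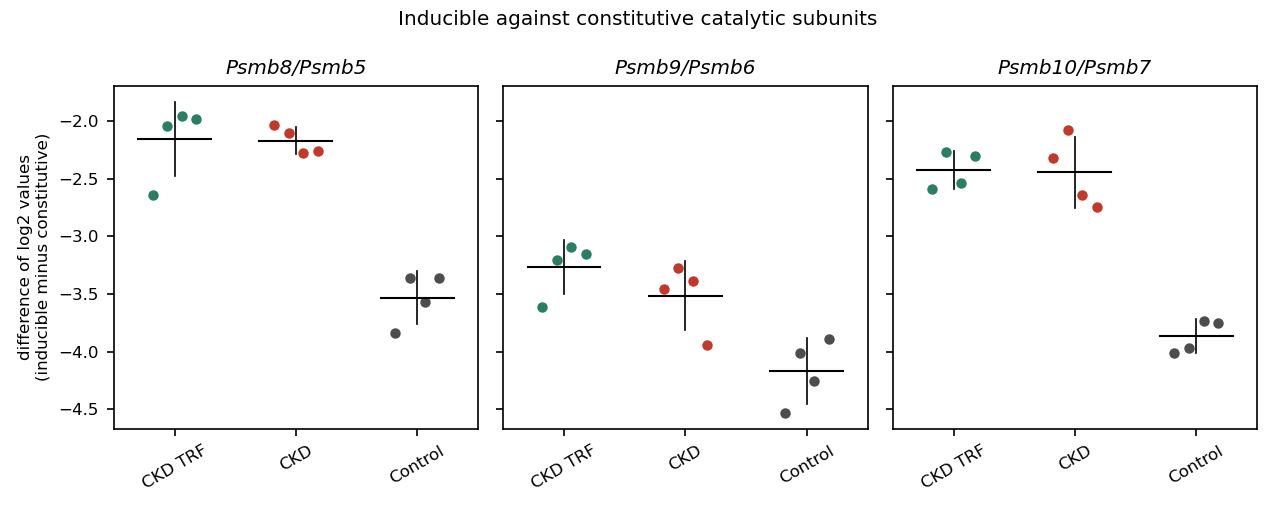
Log2 ratio of inducible to constitutive catalytic subunit (y axis, difference of log2 values) in each library, with a line for the group mean and a bar for ± 1 SD, for 4 CKD TRF, 4 CKD and 4 Control libraries. The diseased groups lie above Control in Psmb8/Psmb5 and Psmb10/Psmb7, and CKD TRF 1 stands below the other 3 CKD TRF libraries in Psmb8/Psmb5.

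The rest of the proteasome core went the same way as the constitutive subunits. Of 11 other subunits of the 20S core, 10 fell and none rose in CKD against Control, where 21.8% of all tested genes fell. The list's median change was -0.54. Psma1 fell by 0.77 ± 0.14, Psma4 by 0.75 ± 0.09 and Psmb1 by 0.72 ± 0.09 (limma adjusted p = 1.9e-04, 1.4e-06 and 1.9e-06). Of the 11, 7 fell in CKD TRF against Control and none rose, where 17.9% of all tested genes fell.

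Among 7 proteasome activator and assembly genes, 1 rose and 4 fell in CKD against Control, beside 23.6% higher and 21.8% lower of all tested genes. Psme1, a subunit of the PA28 activator that is raised together with the immunoproteasome by interferon gamma, rose by 0.42 ± 0.10 (limma adjusted p = 0.00179). Its partner Psme2 changed by 0.16 ± 0.11 and did not pass (limma adjusted p = 0.262). Pomp, the maturation protein needed to assemble both kinds of proteasome, fell by 1.44 ± 0.11, to 222 ± 24.2 scaled reads in CKD, against 603 ± 24.9 in Control (limma adjusted p = 4.7e-09). The assembly chaperones Psmg1 and Psmg2 fell by 0.41 ± 0.14 and 0.52 ± 0.16.

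Nlrc5, the transactivator that drives class I genes through the module printed above, was the member with the fewest reads, 13 to 59 per library in CKD TRF, 35 to 81 in CKD and 3 to 19 in Control. Its log2 values were 1.48, 1.97, 2.17 and 0.89 in CKD TRF, 1.97, 2.47, 1.60 and 2.10 in CKD and 0.94, 1.46, 0.33 and 1.19 in Control. CKD and Control did not overlap, while CKD TRF 4 fell within the Control range. Nlrc5 averaged 2.27 ± 1.18 scaled reads in CKD TRF, 3.19 ± 1.04 in CKD and 1.05 ± 0.630 in Control. It rose by 1.06 ± 0.30 in CKD against Control (limma adjusted p = 0.00714), a value that the added 1 makes too small for a gene this low, and limma voom on the recovered reads gave 1.80. The call was lost under quantile normalization (0.67, adjusted p = 0.0772) and without the libraries with fat markers (0.81, adjusted p = 0.0910). In CKD TRF against Control the change was 0.65 ± 0.30 and did not pass (limma adjusted p = 0.0948). It passed without CKD TRF 4 (0.90, adjusted p = 0.0254) or without Control 2 (0.81, adjusted p = 0.0497).

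Of 17 other regulators of class I genes, 11 rose and none fell in CKD against Control, where 23.6% of all tested genes rose. Irf8, an interferon regulatory factor of myeloid cells, rose by 1.17 ± 0.17, Irf9, the DNA-binding part of the type I interferon complex, by 1.00 ± 0.14 and Nfkb1, the p50 precursor of NF-kB, by 0.94 ± 0.21 (limma adjusted p = 1.2e-05, 1.1e-05 and 0.00105). Of the 17, 9 rose in CKD TRF against Control and none fell, where 19.5% of all tested genes rose. Ciita, the transactivator of class II and a relative of Nlrc5, changed by -0.36 ± 0.24 in CKD and did not pass (limma adjusted p = 0.231).

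The receptor chains Ifnar2 and Ifngr1 were higher in CKD. Of the cytokines, Ifng was low, with its highest value in a Control library, and Ifna4 and Ifnb1 were not detectable. Of 7 interferon ligand and receptor genes tested, 3 rose and none fell in CKD against Control, beside 23.6% higher and 21.8% lower of all tested genes. The 3 were Ifnar2 (1.18 ± 0.11), Ifngr1 (1.18 ± 0.12) and Jak1 (0.38 ± 0.10). The other chains of these receptors, Ifnar1 (0.32 ± 0.13) and Ifngr2 (0.35 ± 0.15), did not pass (limma adjusted p = 0.0534 and 0.0642). Ifnar2 averaged 78.4 ± 5.33 scaled reads in CKD and 34.2 ± 4.95 in Control, and Ifngr1 80.04 ± 9.55 in CKD and 34.6 ± 2.12 in Control. Ifng, the main inducer of the immunoproteasome, reached 0.56 at most on the log2 scale in CKD TRF, 0.34 in CKD and 1.14 in Control, and was at 0 in 2 libraries of each group. Ifna4 was at 0 in all 12 libraries and Ifnb1 above 0 in 1 CKD TRF library. All values of Ifna4 and Ifnb1 lay below the worth of 3 reads, so their expression was not detectable at this depth.

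Genes of cells that read class I were higher in CKD. Of 8 listed, 5 were tested and all 5 rose in CKD against Control, where 23.6% of all tested genes rose. Gzmb, Gzma and Prf1 were too low to be tested. Cd8a and Cd8b1 had Control means of 0.58 and 0.50 on the log2 scale, below the lowest tested mean of 0.729. They were tested only because the diseased libraries were higher, so the counts of rises are partly set by the filter. Pirb, an inhibitory receptor for class I on myeloid cells, rose by 1.43 ± 0.22, Klrd1, which encodes CD94, by 1.28 ± 0.31 and Cd8b1, a chain of the CD8 co-receptor, by 1.19 ± 0.28 (limma adjusted p = 3.4e-05, 0.00211 and 0.00164). Prf1, which encodes perforin, was at 0 in all CKD and Control libraries and above 0 in 1 CKD TRF library. Of the 5, 3 rose in CKD TRF against Control, where 19.5% of all tested genes rose.

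**Figure D5:**
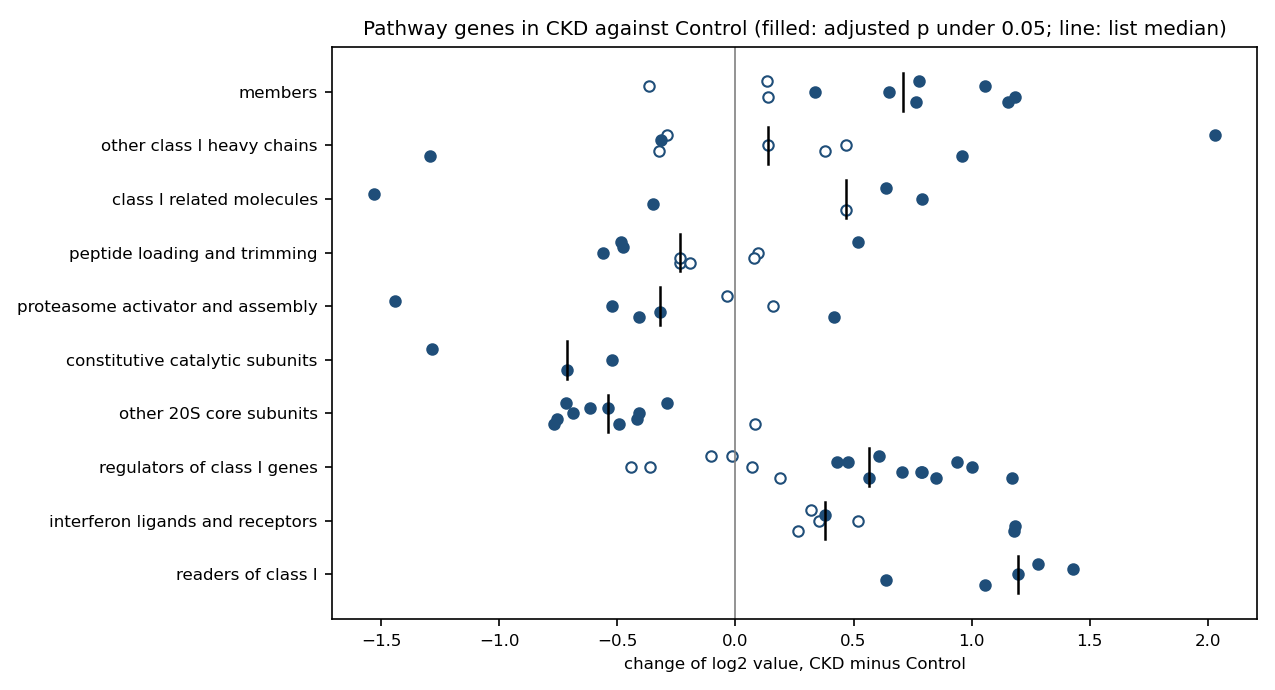
Change of the log2 value (x axis, CKD minus Control, 4 libraries each) of every tested gene of the members' list and of 9 other lists of the pathway, 1 row per list, with a vertical mark for the list median and filled points for an adjusted p under 0.05. The medians of the members (0.71), regulators (0.56) and readers (1.19) lie to the right of 0, with single members and regulators such as Tap2 and Ciita to the left, and the medians of the constitutive (-0.71) and other 20S core subunits (-0.54) lie to the left. Among the readers, Cd8a and Cd8b1 passed the filter only through the diseased groups.

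Leukocytes carry much class I, and their markers moved with the members. All 6 leukocyte markers rose in CKD and in CKD TRF against Control, where 23.6% and 19.5% of all tested genes rose. They summed to 186 to 255 scaled reads in CKD TRF, 221 to 274 in CKD and 61.3 to 94.1 in Control. Ptprc, which encodes CD45, rose by 1.60 ± 0.19 in CKD, more than any of the 10 members. All 8 macrophage markers rose in both comparisons, with a summed level of 532 to 673 scaled reads in CKD TRF, 560 to 721 in CKD and 168 to 197 in Control. Of 7 T cell markers measured, 6 rose in CKD and 5 in CKD TRF against Control, with sums of 14.8 to 18.2 scaled reads in CKD TRF, 14.1 to 23.4 in CKD and 2.72 to 5.48 in Control. Cd4, Cd3e, Cd3g, Cd8a and Cd8b1 had Control means of 0.18 to 0.70 on the log2 scale, below the lowest tested mean of 0.729. They were tested only because the diseased libraries were higher, so the T cell counts are partly set by the filter. The part of these cells in the members' changes was not tested.

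Without the 5 libraries with fat markers, an alternative chosen after the data were seen that left 1 CKD TRF, 2 CKD and 4 Control libraries, H2-K1 (1.16), B2m (0.79), Tap1 (1.27), Tapbp (0.73) and Psmb8 (0.69) still rose in CKD against Control. The same 5 rose in CKD TRF against Control, where the lone CKD TRF library is assumed to vary like the others. Over all genes the calls were then 4037 in CKD and 1478 in CKD TRF against Control, compared with 6333 and 5225 in all libraries.

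The comparison of CKD TRF with CKD asks whether time restricted feeding altered the diseased kidney. None of the 10 members passed, and none of the 13943 tested genes did (0.0%) with limma or limma voom, while 890 genes (6.38%) had an unadjusted p under 0.05 and 1 gene passed when no filter on low values was used. The median change of the members was -0.02. Heavy and light chains were level between the groups, with changes of -0.04 ± 0.12 for H2-K1, -0.01 ± 0.10 for H2-D1 and -0.07 ± 0.11 for B2m (limma adjusted p = 0.974, 0.991 and 0.945). Tap1 changed by -0.13 ± 0.18, Tap2 by 0.02 ± 0.24 and Tapbp by -0.18 ± 0.09 (limma adjusted p = 0.929, 0.991 and 0.800). For Nlrc5 the change was -0.41 ± 0.30 (limma adjusted p = 0.847).

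The 3 immunoproteasome subunits had positive changes in CKD TRF against CKD, and none passed. Psmb9 changed by 0.39 ± 0.18 (limma adjusted p = 0.773) and was the only member with an unadjusted limma p-value under 0.05, at 0.0399 from the fit over all genes. Psmb10 changed by 0.24 ± 0.12 (limma adjusted p = 0.788), and its groups did not overlap, with all CKD TRF values higher, as in 2.37% of all tested genes. Psmb8 changed by 0.16 ± 0.14 (limma adjusted p = 0.886). Their constitutive counterparts also had positive changes, 0.14 ± 0.09 for Psmb5, 0.14 ± 0.09 for Psmb6 and 0.22 ± 0.11 for Psmb7 (limma adjusted p = 0.836, 0.828 and 0.789). The log2 ratios differed by 0.01 for Psmb8 to Psmb5, 0.25 for Psmb9 to Psmb6 and 0.02 for Psmb10 to Psmb7 (exact permutation p = 0.971, 0.257 and 0.886). For Psmb9 to Psmb6 the difference was 0.11 without CKD 4. The summed heavy chains differed by -0.01 on the log2 scale (exact permutation p = 0.886).

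The comparison of CKD TRF with Control shares its Control libraries with the comparison of CKD with Control. In it 8 of the 10 members rose and none fell, while 37.5% of all tested genes passed, 19.5% with a higher level. The median change of the members was 0.62. H2-K1, H2-D1, B2m, Tap1, Tapbp and Psmb8 passed in both comparisons with Control, Nlrc5 in CKD against Control alone, and Psmb9 and Psmb10 in CKD TRF against Control alone. That does not show a difference between the diseased groups, since none of these 3 passed in CKD TRF against CKD. In CKD TRF 7 members had no overlap with Control, all higher, which held for 16.3% of all tested genes.

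The members differed in how closely they followed the list. The standardised mean of the 10 log2 values was correlated with each gene over the 12 libraries, as a description in which the group differences are shared by all points. Psmb8 (Pearson r = 0.94), H2-D1 (0.93) and H2-K1 (0.93) were the members closest to it, and Tap2 (-0.13) was the farthest. The mean holds each member itself, which raises the r of the members. The most similar genes outside the list were Smad3 (0.97), Apbb1ip (0.96), C1qa (0.96), Usp18 (0.96) and Irf8 (0.96), each above every member. Smad3 carries TGF-beta signals, C1qa is a complement gene of macrophages and Usp18 is an interferon-induced protease.

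Within the groups, after the group means were taken off, the 45 pairs of members had a median Pearson r of 0.37 over the 12 libraries, from -0.28 (Tap1 and Tap2) to 0.87 (B2m and Psmb10), and 40 pairs were above 0. H2-D1 and Tap2 (0.77) and Psmb8 and Psmb9 (0.79) were among the closest pairs. The deviations of Ptprc went most with those of Psmb9 (0.87) and Psmb8 (0.71) and least with those of H2-D1 (0.11). Of the members, Tap2 (0.48) and Tap1 (0.50) had the deviations least like the members' mean, which holds each member itself. Genes outside the list whose deviations were among the closest to the members' mean were Zfp280c (0.89), Pappa2 (0.87), Gbp10 (0.86) and Myh14 (0.86). All genes of a library share its scaling factor, and these values are descriptions over few points.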

How the data were processed

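Libraries were made from 500 ng of Trizol-extracted RNA with Lexogen's QuantSeq kit, as the labels' protocols state. The submitters' processing notes name Bowtie2, bedtools and mm10. Versions, strand setting and scaling method are not given in the sources used here. The authors deposited 1 log2 value per gene symbol and library. Its unit is not named and was read from the values: log2 of a whole number of reads times a library factor, plus 1. In each library 98.8% to 100% of values below 20 scaled reads lay within 0.1 of whole reads.

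The upper 60% of genes by their mean over the libraries (13943 genes, log2 mean of at least 0.729) were fitted in limma 3.58.1 (R 4.3.3), with a mean per group over all 12 libraries, a two-sided moderated test whose prior spread followed the mean level, and Benjamini-Hochberg adjustment over these genes (threshold 0.05). A change is a difference of log2 values, which the added 1 makes too small for low genes. The fit was tested on simulated data. Subunit ratios and summed heavy chains were compared with two-sided exact permutation tests over libraries (Python 3.11.15), adjusted over 9 and 3 tests. Named genes were the members, the constitutive subunits, the 3 largest rises and falls of each pathway list in CKD against Control, and the 5 genes most like the members by each measure, of which 1 is not reported here; other genes were named after their values were seen. The members and lists were chosen with earlier results of these data known. Same-numbered libraries of different groups did not deviate together (r from -0.18 to 0.11, over 0.1 in 1 of 12 pairs), so numbers were not taken as pairs.

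Positions are from GENCODE M21 (GRCm38) and promoters from RefSeq (GRCm38.p6). End stretches were compared with all GENCODE transcripts. Alternatives were other scalings, pseudocounts and filters, limma voom on recovered reads, library weights, a replicate block, fits of 2 groups and each library left out.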

Additional observations from a re-analysis of the deposited data

Results flagged for a closer look

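Among 51 groups of 4 libraries looked at (the members, the constitutive subunits, the ratios and the summed heavy chains), 2 held a library far from the other 3, and chance alone gives about 1 in 20. Psmb8 was at 4.778 on the log2 scale in CKD TRF 1, against 5.321 to 5.399 in the other 3 CKD TRF libraries, a gap of 0.874 of the group's range. The log2 ratio of Psmb8 to Psmb5 in the same library was -2.637, against -2.042 to -1.955 in the other 3, a gap of 0.872 of the range, and it holds the same Psmb8 value. CKD TRF 1 had the lowest leukocyte marker sum of its group (186 scaled reads), and its part in these values was not tested.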

How the results depend on the processing

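Over 24 alternatives, 933 single-gene values of the members and constitutive subunits were compared with those reported: 894 kept direction and call, 20 lost and 3 gained a call, 16 changed sign without passing in either fit, and none reversed a call. In CKD against Control 5 to 8 members passed, all higher, 7 in each fit that left out 1 library. In CKD TRF against CKD none passed under any of these. In CKD TRF against Control the count was 6 to 9 when 1 library was left out and 5 without the libraries with fat markers, where the calls over all genes were 1478, and 4037 in CKD against Control; fewer libraries were fitted there. Psmb10 passed in CKD against Control with equal sums (0.35, limma adjusted p = 0.0272), and Psmb6 was lost in CKD TRF against Control under quantile normalization (-0.20, limma adjusted p = 0.0905). In CKD TRF against CKD 1 gene of all passed with no filter, and 0 to 1 when 1 library was left out. Scaling to equal sums moved the median change of all genes by 0.20 in CKD and 0.13 in CKD TRF against Control, and the share of calls that were higher to 76.3% and 71.9%, from 52.1% in both as deposited; median centring moved the median by -0.10 in CKD and the shares to 40.3% and 41.6%. Relative to these shifts no call of a member or constitutive subunit changed direction. With a pseudocount of 4 the ratio differences passed against Control (exact permutation adjusted p = 0.0429): for Psmb8 to Psmb5 1.28 in CKD and 1.29 in CKD TRF, for Psmb9 to Psmb6 0.61 in CKD and 0.79 in CKD TRF, for Psmb10 to Psmb7 1.38 in each, while Psmb10 to Psmb7 in CKD TRF against CKD was -0.0023. With 1 library left out, the ratio differences in CKD against Control were 1.26 to 1.42 for Psmb8 to Psmb5, 0.53 to 0.80 for Psmb9 to Psmb6 and 1.30 to 1.52 for Psmb10 to Psmb7, all 3 passing without CKD 4 (adjusted p = 0.0429); in CKD TRF against CKD they were -0.052 to 0.18 for Psmb8 to Psmb5, 0.11 to 0.36 for Psmb9 to Psmb6 (adjusted p = 0.0735 to 0.661) and -0.080 to 0.14 for Psmb10 to Psmb7, and the difference of summed heavy chains was -0.085 to 0.068. The cause of these moves was not tested. A replicate block gave 6131 calls over all genes in CKD and 5033 in CKD TRF against Control, none in CKD TRF against CKD, and the same 7, 8 and 0 member counts; on ratios, 4 pairs cannot go below an exact p of 0.125. The edgeR and DESeq2 fits planned on recovered reads were not run, because the deposited unit is a log2 value; limma voom on those reads gave 7, 0 and 8 members. Depth limits Nlrc5 (3 to 19 reads per Control library) and the interferon genes most.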
